A study of Rattus norvegicus with 18 samples.

Results

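The frontal lobes of young rats whose mothers had received 0.2 mg/kg of BDE-47 per injection were compared, across all probes of an Illumina rat expression array, with those of rats whose mothers had received the vehicle. The comparison rests on 6 of the 18 arrays of the series, 3 per group, chosen by their labels. BDE-47 is 2,2',4,4'-tetrabromodiphenyl ether, a congener of the brominated flame retardants. In the vehicle group, Wistar dams were injected in the tail with 0.3 ml/kg of ethanol 95%, Cremophor EL and sterile water. In the exposed group the same vehicle carried BDE-47. Dams of both groups were injected every 5 days from gestational day 15 to postnatal day 20, 6 times in all, and their pups stayed with them until weaning on day 21. A single randomly chosen female pup of each litter was killed on postnatal day 41 according to the protocol of the frontal lobe samples, whereas the text for the whole series gives day 10. Each of the 3 dams per group thus gave 1 array. Another frontal lobe group of 3 pups, whose dams received 0.002 mg/kg on the same schedule, entered the fit so that all 9 arrays shared an estimate of the spread. The dose is that of the dam. The amount that reached the pups through placenta and milk is not part of the data used here.

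BDE-47 is fat soluble, accumulates in tissue and passes to offspring before birth and in milk. It is known as a developmental neurotoxicant in rodents, with reported actions on thyroid hormone, on intracellular calcium and on enzymes that clear foreign compounds. The frontal lobe of a rat holds mostly neocortex, in which glutamatergic projection neurons, GABA-releasing interneurons, astrocytes, oligodendrocytes and microglia are mixed. Messenger RNA of a whole lobe therefore sums over all of these cells. In such bulk samples fewer cells of a type and less RNA per cell cannot be told apart.

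The arrays carried marks of cortical tissue, though not in every marker, and also some markers of other regions. In vehicle lobes the projection neuron genes Neurod6 and Slc17a7 stood at 11.67 ± 0.23 and 10.47 ± 0.07 on the deposited log2 scale (mean ± SD, n = 3). Over the 9 frontal lobe arrays 18 of 20 measured projection neuron markers had a mean of at least 8, as had 15 of 17 striatum markers. The counts were 3 of 16 for hypothalamus, 7 of 24 for thalamus, hindbrain and cerebellum, and 6860 of 13337 for all named genes. Values near 7.6 lie at the low end of the scale. The hindbrain genes Hoxb2, Hoxb3 and Hoxb5, the cerebellar receptor gene Gabra6 and the hypothalamic hormone gene Oxt all lay between 7.59 and 7.67. The hypothalamic genes Pmch and Avp lay at 7.87 and 7.9. Other markers of those regions were higher in vehicle, with the hypothalamic genes Cartpt and Pomc at 8.91 and 8.5. Pax6 and Prkcd, of the thalamus, hindbrain and cerebellum list, lay at 8.55 and 8.53. The projection neuron markers Emx1 and Neurod2 stood at 8.19 and 8.43, close to their 8.15 and 8.43 in total brain vehicle arrays of the series. Olfactory bulb markers (13 genes) averaged -0.18, -0.24 and 0.19 in vehicle and 0.29, -0.01 and 0.04 at 0.2 mg/kg, relative to the mean of the 9 arrays. Each array gave values for 22523 probes, of which 58.5% had a mean under 8 over the 9 frontal lobe arrays. Pairs of these arrays correlated across probes at r between 0.981 and 0.997, and probes had a median within-group SD of 0.053.

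Arrays stood apart from the others of their groups on both leading components. On the first principal component of the 9 frontal lobe arrays (44.5% of the variance), vehicle replicate 3 scored 3.37 where the other vehicle arrays scored -11.14 and -12.32. Replicate 2 of the 0.2 mg/kg group scored 24.67 where the others scored 14.95 and 10.19. Vehicle replicate 3 thus lay on the side of the exposed arrays, and 0.2 mg/kg replicate 2 lay farthest from vehicle. On the second component (18.4%), vehicle replicate 1 scored 18.16 where the other vehicle arrays scored 3.95 and -2.55. The count of calls is given without each of these arrays.

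In the exposed lobes 257 of 22523 probes (1.14%) passed at a Benjamini-Hochberg adjusted p under 0.05 in limma, with 145 higher (0.644% of all probes) and 112 lower (0.497%) than in vehicle. A passing probe is said to have risen or fallen. The 3 exposed values of each passing probe lay beyond its 3 vehicle values, as did those of 17.6% of all probes. The rises were mostly small, with a median log2 difference of 0.42, and 42 of the 145 reached 0.5. The falls had a median of -0.47, and 52 of the 112 reached that size. A log2 difference of at least 1 was reached by 8 rises and 16 falls. Of the passing probes, 121 rises and 70 falls carried a gene symbol. With 1 probe per gene 187 of 13337 genes (1.4%) passed. The count moved with single arrays. It was 1036 without vehicle replicate 3, with 251 of the 257 among them, and 120 without 0.2 mg/kg replicate 2, with 91 among them. It was 727 without the last 2 named arrays, 27 without vehicle replicate 2, 51 without vehicle replicate 1 and 44 without 0.2 mg/kg replicate 1. Leaving out 0.002 mg/kg replicate 1, 2 or 3 gave 114, 81 and 120 probes. A fit of the 6 compared arrays alone called 5 probes, namely Rpl7, Gltp, Atp2b2 and 2 without a gene symbol. It has fewer residual degrees of freedom, as has a fit of the 6 arrays at 0.2 and 0.002 mg/kg alone. That fit called 911 probes between the doses, against 646 with all 9 arrays. The calls against vehicle thus also rest on the spread of the 0.002 mg/kg arrays, and the cause of the contrast was not tested. Passing in all 9 fits that each left out 1 array were 21 probes, 12 rises and 9 falls. Those with a symbol were Rpl37l1, Rpl7, Eef1a1, Rpl23, Dgat2, Marchf2, Gltp and Cdc16 among the rises and Bbs4, Hdac4 and Cxcl12 among the falls.

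**Figure D1:**
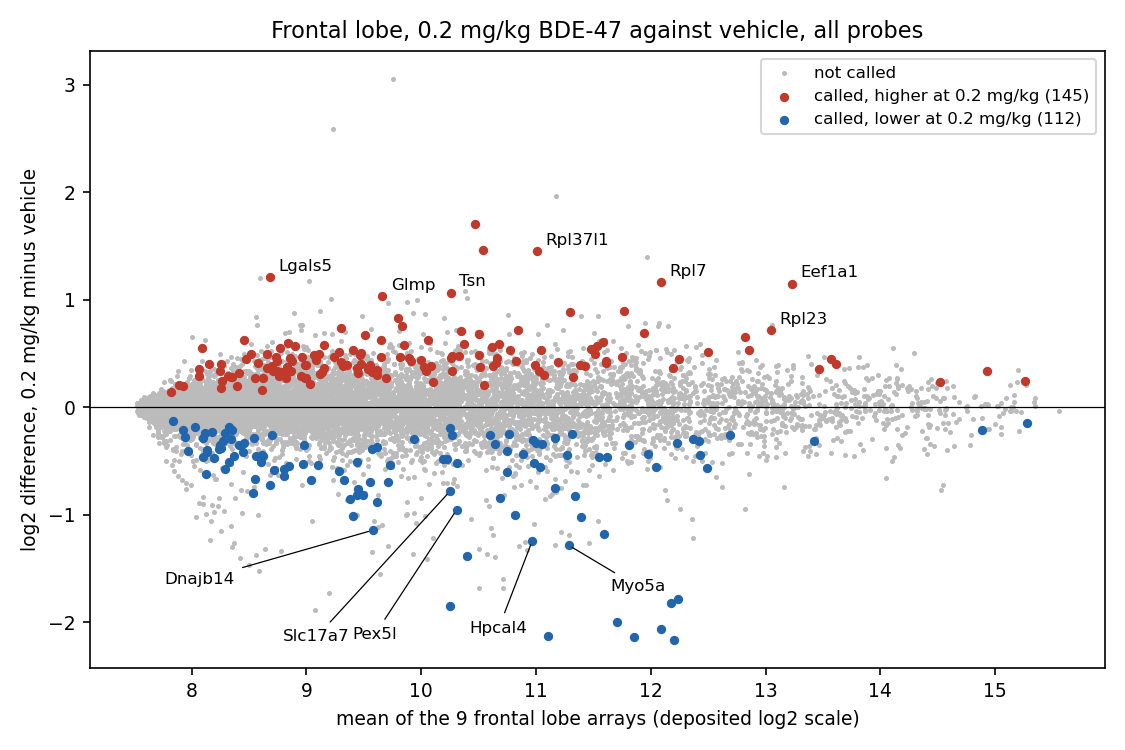
Each point is 1 of 22523 probes, with its mean over 9 arrays on the x axis and its log2 difference between the exposed and vehicle lobes (3 arrays each) on the y axis. The 145 rises (red) and 112 falls (blue) that passed are spread over the range of levels, and the farthest falls, near -2, are probes without a gene symbol.

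Among the 12 largest named rises, 3 were of the cytoplasmic ribosome, the particle of RNA and protein that translates messenger RNA. Rpl7, a protein of the large subunit, read 11.59, 11.80 and 11.77 in the vehicle arrays and 12.81, 12.96 and 12.88 in the exposed arrays, a log2 difference of 1.16 (SE 0.063, adjusted p = 0.000894 in limma). Rpl37l1, whose name places it beside the large subunit gene Rpl37, read 10.48, 10.58 and 10.74 against 11.91, 12.30 and 11.94. Rpl23, also of the large subunit, read 12.80, 12.91 and 12.87 against 13.47, 13.71 and 13.55. In all 3 genes every exposed array was at least 0.5 above the highest vehicle array, and the 0.002 mg/kg arrays lay at or below the vehicle values or among them. Rplp0, a protein of the ribosomal stalk, rose by 0.34, and Rps29, of the small subunit, by 0.45.

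Over the whole list of large subunit genes, 4 of 41 rose and 0 fell, 34 lay above 0, and the median log2 difference was 0.14. Among all 13337 named genes, taken with 1 probe each, 0.877% rose and 0.525% fell, 6925 lay above 0 and the median was 0.003. Of the small subunit genes 1 of 23 rose, 16 lay above 0 and the median was 0.18, or 0.09 without exposed replicate 2. Rps21, Rps14 and Rps20 had differences of 0.38, 0.24 and 0.27 with adjusted p values of 0.0547, 0.0876 and 0.0920, so they did not pass. Relative to the mean of the 9 arrays, the large subunit list averaged -0.09, -0.08 and 0.03 in vehicle, -0.10, -0.14 and -0.12 at 0.002 mg/kg and 0.03, 0.33 and 0.14 at 0.2 mg/kg. Vehicle replicate 3 and exposed replicate 1 thus touched on this scale, and exposed replicate 2 was highest. Without exposed replicate 2 the median of the list was 0.08. Ribosomal protein genes have many processed copies in the genome, and whether a probe also binds RNA of such copies was not tested. Mitochondrial ribosomal protein genes had 0 of 60 calls, 41 above 0 and a median of 0.09. Their mean was 0.02, 0.25 and 0.01 in the exposed arrays and 0.14 in vehicle replicate 3, so the groups overlapped and exposed replicate 2 was highest, with Mrps18a nearest to passing (0.57, adjusted p = 0.0793).

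Other parts of translation moved less uniformly. The probe for Eef1a1, the factor that delivers aminoacyl-tRNA, read 12.58, 12.95 and 12.72 in vehicle and 14.02, 13.74 and 13.93 at 0.2 mg/kg, a difference of 1.15. The other 4 probes of Eef1a1 had differences of 0.08, -0.01, -0.02 and 0.00, so the rise belonged to 1 probe of 5. Eif3a, the large scaffold subunit of initiation factor 3, fell by 0.26. Of 38 initiation and elongation factor genes, 0 rose and 1 fell, and the median was 0.01. Rising genes outside the fixed lists, grouped after their values were seen, included enzymes that modify transfer RNA or translation factors, namely Ctu2 (0.27), which thiolates wobble uridines, Tyw1 (0.31), an enzyme of wybutosine synthesis, and Dhps (0.38), which makes the hypusine residue of eIF5A. Psmc3, an ATPase of the proteasome, rose by 0.37 as the single call among 35 proteasome genes, of which 23 lay above 0. For all 13337 named genes 0.877% rose and 6925 lay above 0.

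The proximal promoters of 5 passing genes are shown as examples of both directions. They are 2 ribosomal genes that rose and 3 genes of the synaptic and calcium lists described below that fell. The letters are RefSeq's on the GRCr8 build, from 100 bases before the annotated start to 10 after it, 5′ to 3′ on the gene's strand, and capitals mark GGGCGG, the GC box bound by Sp1 family factors, or TATAAA, the TATA box, on either strand, where matches may overlap.
Rpl23, chr10:83272175-83272284, minus strand: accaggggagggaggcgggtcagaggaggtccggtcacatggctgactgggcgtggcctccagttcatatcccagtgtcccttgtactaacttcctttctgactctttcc
Rplp0, chr12:46718381-46718490, minus strand: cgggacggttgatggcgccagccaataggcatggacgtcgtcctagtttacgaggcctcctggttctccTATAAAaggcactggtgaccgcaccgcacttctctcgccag
Slc17a7, chr1:104786105-104786214, plus strand: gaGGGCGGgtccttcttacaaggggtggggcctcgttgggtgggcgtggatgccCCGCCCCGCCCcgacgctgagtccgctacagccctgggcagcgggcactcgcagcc
Epn1, chr1:77789402-77789511, minus strand: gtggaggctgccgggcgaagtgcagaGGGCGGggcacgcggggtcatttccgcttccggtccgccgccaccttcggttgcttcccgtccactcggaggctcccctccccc
Atp2b2, chr4:148763644-148763753, minus strand: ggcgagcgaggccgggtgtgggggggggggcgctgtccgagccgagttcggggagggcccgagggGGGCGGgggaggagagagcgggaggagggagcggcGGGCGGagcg
The window of Rpl23 held neither motif, that of Rplp0 held 1 TATA box, and those of Slc17a7, Epn1 and Atp2b2 held 3, 1 and 2 GC boxes. In windows of 300 bases, from 250 before to 50 after the start, a GC box was present in 70.8% of the 106 rising and 74.1% of the 58 falling genes with a promoter in the table. The share was 34.9% of all 27457 promoters, 49.7% of the 10993 genes of the array and 63.6% of the 5747 genes with a probe mean of at least 8. Both directions thus had similar shares, above that of all promoters, and genes with higher probe means had a higher share as well. A TATA box was present in 8.49% of rising, 3.45% of falling and 6.93% of the brighter genes, and in 14.3% of all promoters. These are matches of letters, and no binding was measured.

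Beyond translation, the largest named rises came from genes of unrelated roles. Lgals5, which encodes a rat galectin, a lectin that binds galactosides, read 8.36, 8.26 and 8.34 in vehicle and 9.05, 9.90 and 9.65 at 0.2 mg/kg. Tsn, whose product translin binds RNA and single-stranded DNA, read 9.84, 9.95 and 9.50 against 10.77, 10.86 and 10.86. Glmp, a lysosomal membrane glycoprotein, read 9.30, 9.06 and 9.49 against 10.36, 10.61 and 9.99. The spread among exposed pups was narrow for Tsn and wide for Lgals5 and Glmp, and the groups did not overlap in any of them. Igfbp2, which binds insulin-like growth factors and is abundant in the meninges, read 11.25, 11.05 and 11.13 against 11.99, 12.31 and 11.78, while the 0.002 mg/kg arrays read 10.86, 10.70 and 10.58. Its partner Igf2, another meningeal transcript, differed by 0.76 without passing (adjusted p = 0.0903). Among all 13337 named genes 0.877% rose and 6925 lay above 0. The meninges and fibroblast list had 29 of 41 genes above 0 and 1 call, Igfbp2 itself. Its mean ran from -0.17 to 0.10 in vehicle, from -0.17 to -0.11 at 0.002 mg/kg and from 0.03 to 0.30 at 0.2 mg/kg, and its part in the rise of Igfbp2 was not tested. Dele1, a mitochondrial protein that signals organelle stress, rose by 0.72 and Rasgef1c, a guanine nucleotide exchange factor, by 0.75.

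**Figure D2:**
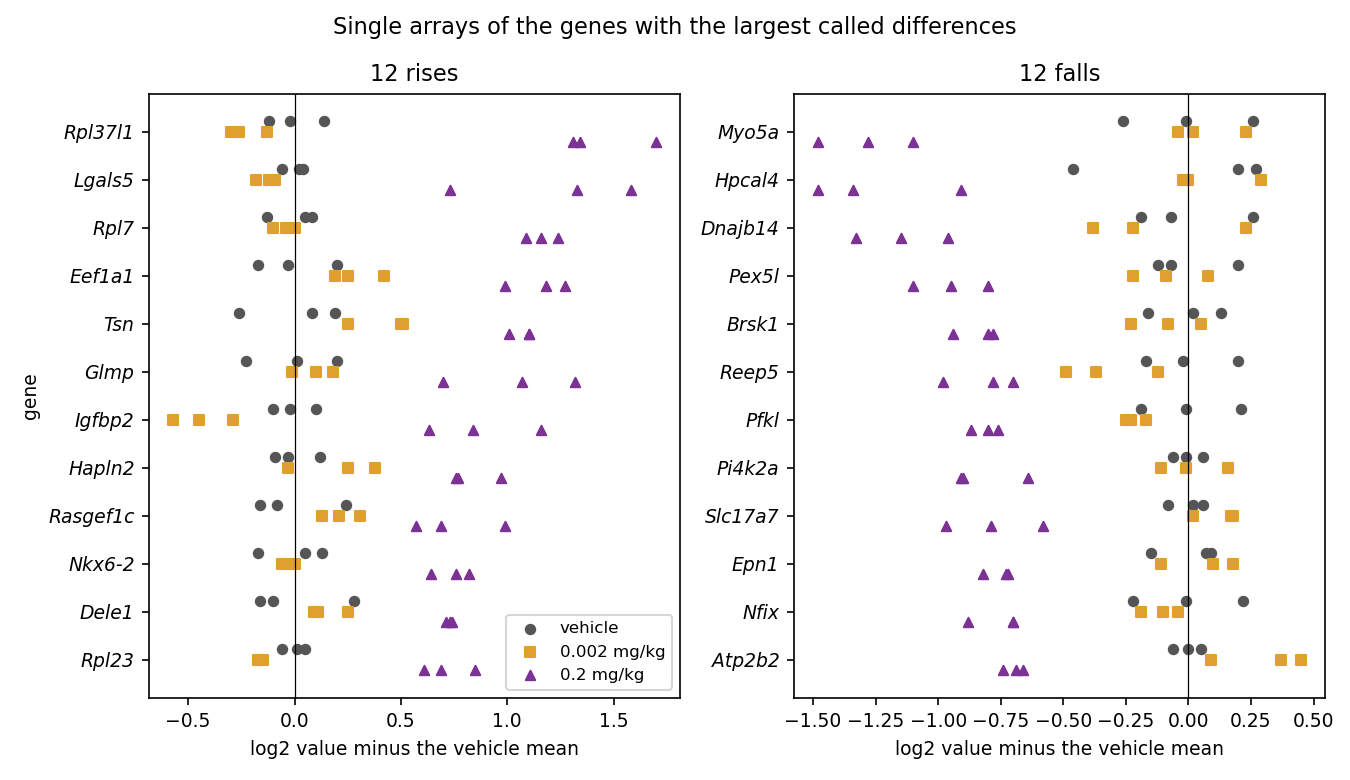
Each row is a gene and each point 1 array, plotted as its log2 value minus the mean of the 3 vehicle arrays, for the 12 largest named rises (left) and falls (right). All triangles (0.2 mg/kg) lie outside the range of the circles (vehicle) by selection, while the squares (0.002 mg/kg) lie near the circles, below them for Igfbp2 and above them for Tsn.

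Among genes of myelin, the sheath made by oligodendrocytes, 2 of 32 rose and 26 lay above 0, with a median of 0.15. Of all 13337 named genes 0.877% rose and 6925 lay above 0, with a median of 0.003. In total brain arrays at the same dose, where 0 probes passed, the median of the myelin list was 0.18. Nkx6-2, a homeodomain factor of oligodendrocytes, read 8.89, 9.11 and 9.19 in vehicle and 9.70, 9.82 and 9.88 at 0.2 mg/kg (log2 difference 0.74, SE 0.078, adjusted p = 0.0135 in limma). Hapln2, which anchors matrix at nodes of Ranvier, read 9.42, 9.57 and 9.36 against 10.22, 10.42 and 10.21. Both genes thus separated the groups by more than the spread within either. The protease gene Klk6 differed by 0.41 (adjusted p = 0.0606). Mbp, the major protein of compact myelin, lay between 10.35 and 11.04 in vehicle and read 11.69, 11.08 and 11.38 at 0.2 mg/kg, a difference of 0.59 that did not pass (adjusted p = 0.372), although the groups did not overlap. The list mean was -0.15, 0.02 and -0.18 in vehicle and 0.10, 0.07 and 0.14 at 0.2 mg/kg, but 0.08, 0.06 and -0.14 at 0.002 mg/kg, so the lower dose overlapped both groups.

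Genes of synapses fell singly, with between 0 and 3 falls on each list. Of all 13337 named genes 0.525% fell and 6411 lay below 0, with a median of 0.003. Slc17a7, the vesicular transporter that loads glutamate in cortical projection neurons, read 10.49, 10.53 and 10.39 in vehicle and 9.68, 9.50 and 9.89 at 0.2 mg/kg. The 0.002 mg/kg arrays read 10.65, 10.49 and 10.64, close to vehicle. Myo5a, a myosin that carries cargo into dendritic spines, read 11.68, 11.95 and 11.43 against 10.41, 10.21 and 10.59, a difference of -1.28 (SE 0.147, adjusted p = 0.0135 in limma). Every exposed array of these genes lay below every other frontal lobe array. On the presynaptic side Ppfia3, a liprin of the active zone, fell by 0.54 and Prrt2, a regulator of vesicle release, by 0.38. In the endocytic machinery Pi4k2a, a kinase that makes phosphatidylinositol 4-phosphate, read 9.75, 9.82 and 9.70 against 9.12, 8.86 and 8.85. Epn1, a clathrin adaptor, read 9.77, 9.75 and 9.53 against 8.96, 8.86 and 8.95. The clathrin adaptor subunit Ap2a1 fell by 0.53, whereas Dnm2, the widely expressed dynamin, rose by 0.39. These were the 3 falls and the rise among 27 endocytosis genes, 14 of which lay below 0, a share near that of all named genes.

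On the postsynaptic side Nlgn3, a neuroligin that binds presynaptic neurexins, fell by 0.18 and Cnih2, an auxiliary subunit that modulates AMPA receptors, by 0.33. Nlgn3 and Myo5a were the 2 of 24 genes of the postsynaptic density and spine list that fell, 21 lay below 0 and the median was -0.18. Among all 13337 named genes 0.525% fell, 6411 lay below 0 and the median was 0.003. Of 13 AMPA and kainate receptor genes 1 fell and 11 lay below 0, with a median of -0.19. NMDA receptor genes had 0 of 6 calls, though Grin2a, the subunit that increases as the cortex matures, read 10.41, 10.59 and 9.83 in vehicle and 9.15, 8.98 and 9.47 at 0.2 mg/kg (log2 difference -1.08, adjusted p = 0.0580). Vehicle replicate 3 was the lowest of its group for Grin2a and still lay above every exposed array. Gria3 had a difference of -0.80 (adjusted p = 0.0912). Gabrd, the subunit of extrasynaptic GABA receptors, fell narrowly but evenly, from 10.80, 10.78 and 10.78 to 10.52, 10.41 and 10.41. Gabra5 differed by -0.69 without passing (adjusted p = 0.0907), and 14 of 19 GABA and glycine receptor genes lay below 0. Among presynaptic SNARE and active zone genes, 1 of 43 fell, 30 lay below 0 and the median was -0.05. Nsf, Vamp2 and Snap25 had differences of -0.51, -0.36 and -0.66 and did not pass (adjusted p = 0.0514, 0.0570 and 0.0844).

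Markers of cell types are set beside all 13337 named genes, of which 0.877% rose and 0.525% fell. Of these genes 6925 lay above 0 and 6411 below, with a median of 0.003. Of 20 measured markers of projection neurons 1 fell (Slc17a7), 16 lay below 0 and the median was -0.13. Their mean was 0.00, 0.06 and 0.05 in vehicle and -0.07, -0.21 and -0.04 at 0.2 mg/kg. General neuronal markers had 16 of 23 below 0 and 0 calls. Markers of inhibitory interneurons had 7 of 19 below 0 and a median of 0.03. Microglial markers had 24 of 29 above 0 and a median of 0.11, with means of -0.10, -0.05 and 0.02 in vehicle and 0.00, 0.33 and 0.06 at 0.2 mg/kg, so that exposed replicate 2 carried most of that shift. Laptm5, a lysosomal protein of immune cells, was among the nearest to passing (0.42, adjusted p = 0.135). Astrocyte markers had 0 of 18 calls, 11 above and 7 below 0, with a median of 0.07. Nearest to passing were Ndrg2 at 0.55 (adjusted p = 0.0575), Atp1b2 at -0.62 (adjusted p = 0.137), S100b at 0.36 and Sparcl1 at -0.18. Gfap read 12.53, 12.16 and 11.98 against 12.27, 13.55 and 12.32. The part of cell type composition in the falls of neuronal genes was not tested.

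Genes that handle calcium and membrane excitability fell in small numbers. Atp2b2, the plasma membrane pump that expels calcium from neurons, read 9.74, 9.69 and 9.63 in vehicle, 9.78, 10.06 and 10.14 at 0.002 mg/kg and 8.95, 9.0 and 9.03 at 0.2 mg/kg. Hpcal4, a neuronal calcium sensor, read 10.89, 11.55 and 11.62 against 10.01, 9.87 and 10.44. The groups were tight and far apart for Atp2b2, and loose for Hpcal4, whose vehicle replicate 1 stood below its group. Pex5l, which controls the trafficking of the HCN channels behind the hyperpolarization-activated current, read 10.58, 10.85 and 10.53 against 9.70, 9.55 and 9.85. Kcnj11, the pore of ATP-sensitive potassium channels, fell by 0.29. Dgkz, a kinase that removes the second messenger diacylglycerol, fell by 0.61. In the opposite direction Stim1, the calcium sensor of the endoplasmic reticulum that opens store-operated channels, rose by 0.54 and Cracr2b, a regulator of those channels, by 0.28.

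Of all 13337 named genes 0.525% fell and 6411 lay below 0, with a median of 0.003. Voltage-gated calcium channel genes had 0 of 14 calls, yet all 14 lay below 0, between -0.54 and -0.04, with a median of -0.14. Cacna2d3 was nearest to passing (-0.24, adjusted p = 0.0746), and Cacna1g had the lowest value (-0.54, adjusted p = 0.265). In vehicle replicate 3 the mean of this list was -0.08, level with exposed replicates 3 and 1 at -0.08 and -0.09, so the groups were not separated. Calcium pumps and release channels had 1 fall among 15 genes, 12 below 0 and a median of -0.14. The ryanodine receptor gene Ryr2, which releases calcium from stores, read 8.10, 8.15 and 8.24 against 7.87, 7.82 and 7.99 (-0.27, adjusted p = 0.0732). Potassium and HCN channels had 2 falls among 46 genes and 31 below 0. Sodium channel genes had 0 of 14 calls, with Scn2a at -0.86 (adjusted p = 0.0828). Among calcium-dependent kinases, phosphatases and phospholipases 0 of 31 passed and 17 lay below 0, a share near that of all named genes. Plcb1 stood at -0.82 and Prkce at -0.85 (adjusted p = 0.0662 and 0.102 in limma).

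**Figure D3:**
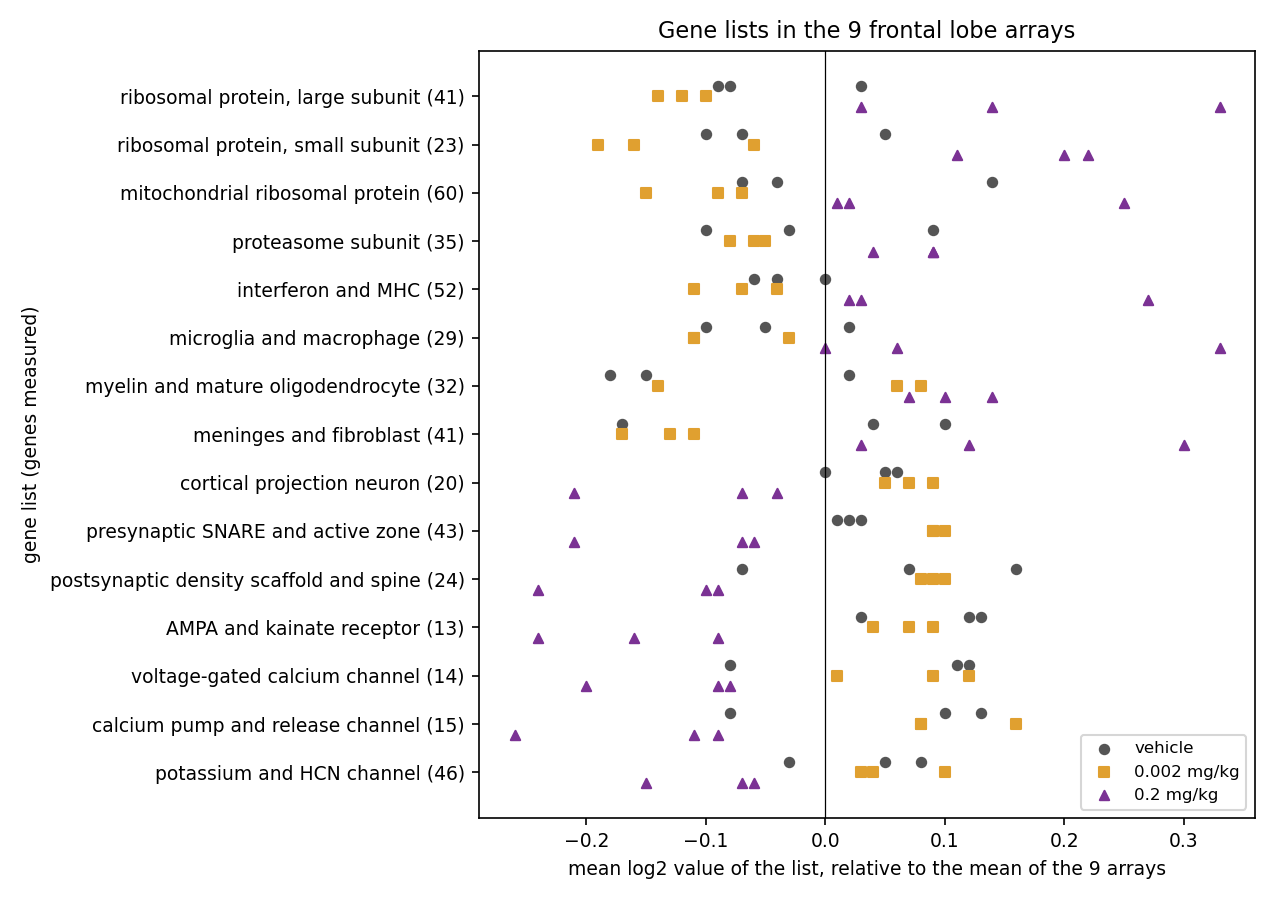
Each row is a gene list, picked from the 52 lists, and each point 1 array. Points give the mean log2 value of the list after subtracting its mean over all 9 arrays. The small subunit row includes the ribosomal gene Rps9, whose difference of 1.97 did not pass and whose part in that row was not tested. Exposed arrays (triangles) lie at or right of zero in the upper 8 rows, from ribosomal to meningeal lists, and left of zero in the lower 7, from projection neuron markers to potassium channels, and in several rows a vehicle array (circle) lies level with them.

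Further falls are described by role, without a test of any role. Brsk1, a kinase that sets neuronal polarity, read 11.02, 11.13 and 10.84 in vehicle and 10.06, 10.22 and 10.20 at 0.2 mg/kg. Prkaca, a catalytic subunit of protein kinase A, fell by 0.56, and Hdac4, a class IIa histone deacetylase of neurons, by 0.51. Hdac4 was the single call among 34 histone and chromatin genes, and it passed in each of the 9 fits with 1 array left out. Nfix, a nuclear factor I protein that guides neural differentiation, read 11.45, 11.68 and 11.24 against 10.76, 10.58 and 10.76. Members of the ubiquitin system, grouped after their values were seen, also fell, among them the deubiquitinase Usp7 (-0.56), the substrate adaptors Kctd6 (-0.48) and Klhl24 (-0.40), and Keap1 (-0.48), the adaptor that marks Nrf2 for degradation. A different ubiquitin ligase, Marchf2, rose by 0.53, and Cdc16, a subunit of the anaphase-promoting complex, rose by 0.44. For Cdc16 and Marchf2 a further probe gave 0.06 and 0.13. Bbs4, a part of the BBSome that sorts cargo into cilia, read 9.58, 9.57 and 9.58 against 8.94, 8.79 and 8.98, and the chemokine gene Cxcl12 read 11.88, 11.73 and 11.87 against 11.39, 11.40 and 11.30. Axin2 (-0.41) and Smad7 (-0.46) are feedback inhibitors of Wnt and TGF-beta signalling.

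Glycolysis genes held 1 fall and 1 rise among 21. Pfkl, the liver-type phosphofructokinase that is also made in brain, read 9.99, 9.77 and 9.59 in vehicle and 8.98, 8.91 and 9.02 at 0.2 mg/kg. Gapdh, often taken as a reference transcript, rose by 0.40, from 13.44, 13.45 and 13.55 to 14.00, 13.84 and 13.80. The chaperone list had Dnajb14, a co-chaperone of the endoplasmic reticulum, at 9.93, 10.26 and 9.81 against 8.67, 8.85 and 9.04, and the related Dnajc18 rising by 0.39. Reep5, which shapes tubules of the endoplasmic reticulum, fell by 0.83 on 1 probe while its other probe stood at 0.06. Ppargc1a, a coactivator of mitochondrial biogenesis, fell by 0.35. None of 28 complex I genes and none of 30 genes of complexes II to V passed, with medians of 0.05 and -0.02.

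Some rises were in genes of lipid handling and of the secretory pathway, groups put together after their values were seen and not tested. On the fixed list of cholesterol and fatty acid metabolism 0 of 44 genes rose, 1 fell (Ppargc1a) and 26 lay below 0, with a median of -0.04. Gltp, which moves glycolipids between membranes, read 12.28, 12.36 and 12.33 in vehicle and 12.87, 12.82 and 12.82 at 0.2 mg/kg (log2 difference 0.51, SE 0.028, adjusted p = 0.000894 in limma). Dgat2, the last enzyme of triglyceride synthesis, read 9.25, 9.17 and 9.27 against 10.00, 9.87 and 9.82. Abhd4, a lipase of N-acyl phospholipids, rose by 0.69, Plpp2, a lipid phosphate phosphatase, by 0.62, and the acyltransferase Agpat1 by 0.29. The mitochondrial carriers Slc25a1, for citrate, and Slc25a20, for acylcarnitine, rose by 0.59 and 0.46. In the secretory pathway Pigt and Pigu, subunits of the enzyme that attaches GPI anchors, rose by 0.47 and 0.38. Dpagt1, which starts the lipid-linked N-glycan, rose by 0.47, and Mpdu1, needed for dolichol-linked mannose, by 0.60.

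Single genes of innate immunity, grouped after their values were seen, rose. Irf3, a transcription factor of interferon induction, read 10.45, 10.35 and 10.39 in vehicle and 11.05, 11.10 and 10.72 at 0.2 mg/kg, a rise of 0.56. Tnip1, which restrains NF-kappa B signalling, rose by 0.59, Bcl10 by 0.46 and Tlr6, a receptor for bacterial lipopeptides, by 0.27. Among all 13337 named genes 0.877% rose and 6925 lay above 0, with a median of 0.003. Irf3 was the single call among 52 interferon and MHC genes, of which 40 lay above 0, with a median of 0.09. Irf1 differed by 0.39 (adjusted p = 0.0517). The mean of that list was 0.02, 0.27 and 0.03 in the exposed arrays, so replicate 2 again stood apart, and in vehicle it ran from -0.06 to 0.00. Fth1, the ferritin heavy chain that stores iron, rose by 0.24 and was, with the fall of Keap1, the call among 39 oxidative stress genes, 28 of which lay above 0.

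No gene on the lists of the thyroid axis and of xenobiotic metabolism passed. Of 32 genes of the thyroid hormone axis and its targets 0 passed, 16 lay above 0 and 16 below, and the median was 0.00. Thrsp, a lipogenic thyroid target, read 11.13, 10.97 and 9.99 in vehicle and 10.27, 11.38 and 10.96 at 0.2 mg/kg, so the groups overlapped. Hr (0.04), Klf9 (-0.02) and Dio2 (-0.02) differed little, and Hopx came nearest to passing (0.54, adjusted p = 0.0514). Ttr, which carries thyroid hormone in the cerebrospinal fluid, read 10.71 in vehicle replicate 1 and between 7.92 and 8.56 in the other 5 arrays. Of 39 genes of xenobiotic metabolism 0 passed, with a median of 0.01, and Cyp1a1, the classic target of the aryl hydrocarbon receptor, lay at the low end of the scale, between 7.58 and 7.65. Nqo1, a target of Nrf2, read 9.62, 9.69 and 9.59 against 10.04, 10.56 and 10.04. Its groups were separated and its difference was 0.58, with an adjusted p of 0.0844. Sod3, an extracellular superoxide dismutase, differed by 0.61 (adjusted p = 0.0524). The neuronal activity gene Fos (-0.38, adjusted p = 0.279) and the nicotinic receptor gene Chrna4 (0.13, adjusted p = 0.638) did not pass.

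The comparison with the lower dose shares the 0.2 mg/kg arrays, so its values are not independent of those above. There 646 probes (2.87% of 22523) passed between 0.2 and 0.002 mg/kg. Rpl7 read 11.68, 11.72 and 11.62 at 0.002 mg/kg, and its difference between the doses was 1.21 (adjusted p = 0.000721 in limma). Atp2b2 differed by -1.0 and Igfbp2 by 1.31 between the doses, each more than against vehicle. Dnm2, by contrast, read 9.37, 9.41 and 9.33 at 0.002 mg/kg and 9.52, 9.48 and 9.46 at 0.2 mg/kg, a difference of 0.12 (adjusted p = 0.325). Ralgds, which activates Ral GTPases and had risen by 0.19 over vehicle, differed by 0.01 between the doses (adjusted p = 0.934). For these genes both doses lay above vehicle, which has its own 3 arrays.

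Total brains, by their sample protocol from younger pups at postnatal day 10 after 3 injections per dam, give another 6 arrays at the same dose. The text for the whole series instead has both tissues from the same pups. Whether the tissues share pups or litters is therefore not settled, and the interaction below treats all 18 arrays as separate. In total brain 0 probes (0%) passed between 0.2 mg/kg and vehicle in limma, while 972 had an unadjusted p under 0.05. Of the 145 probes that rose in the frontal lobe, 58 lay above 0 in total brain, and of the 112 that fell, 57 lay below 0. Over all probes 49.6% lay above 0 in total brain. The difference of the effects, tested as an interaction over all 18 arrays, passed for 46 probes (0.204% of 22523), and 43 of these were among the 257. The interaction contains the same frontal lobe difference on the same arrays, so this overlap is not independent of the calls above. Rpl7 differed by -0.20 and Rpl37l1 by -0.27 in total brain, and Slc17a7 by 0.17, each opposite in sign to the frontal lobe. Lgals5 differed by 0.80 in total brain, the same direction as its 1.21 in the frontal lobe, and its interaction did not pass (0.41, adjusted p = 0.78). Tissue, age and number of injections differ together between the sets, so their parts cannot be told apart.

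**Figure D4:**
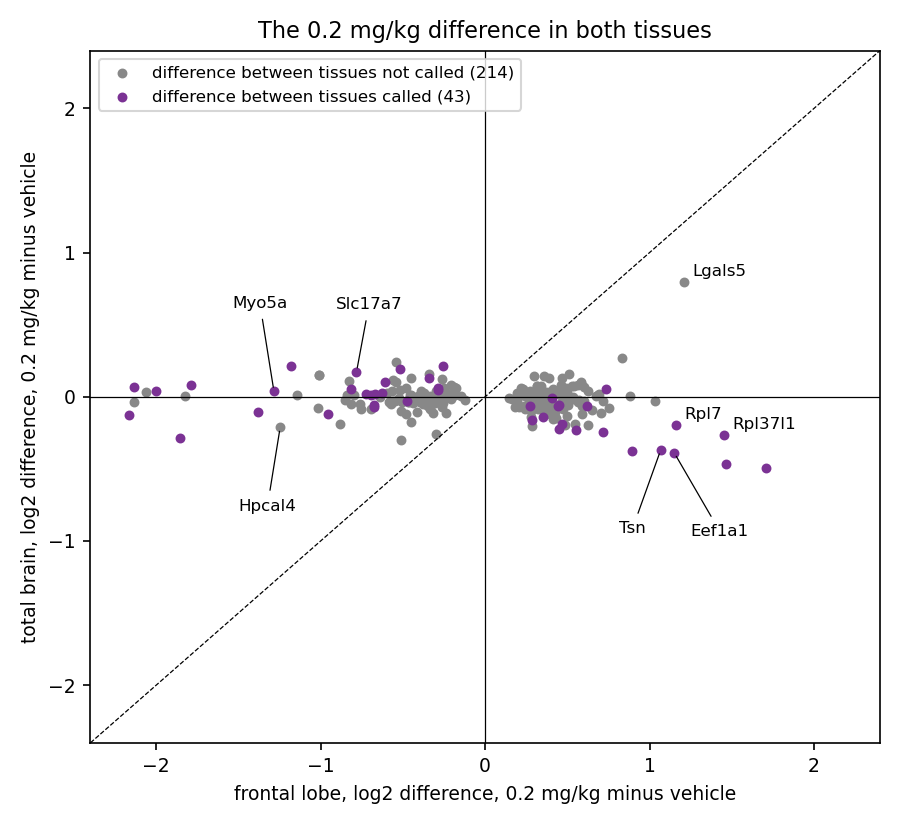
Each point is 1 of the 257 probes that passed in the frontal lobe, with its log2 difference between exposed and vehicle arrays in frontal lobe (x axis) and in total brain (y axis), and the dashed line marks equal differences. Most points lie near 0 on the y axis, 43 differed between the tissues (purple), and Lgals5 is the named gene nearest to the dashed line among the large rises.

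Levels in total brain were set beside the passing probes after their values had been seen. The reference in the frontal lobe was the 0.002 mg/kg group, whose arrays do not enter the log2 difference between 0.2 mg/kg and vehicle but do enter the estimate of the spread behind the calls. The level in total brain vehicle minus that in frontal lobe at 0.002 mg/kg was above 0 for 124 of the 145 rises (85.5%, median 0.38). It was below 0 for 93 of the 112 falls (83%, median -0.47). Among the 9345 probes with a mean of at least 8 the shares were 56.9% above and 43.1% below 0, with a median of 0.06. Over all 22523 probes, most of them at the low end of the scale, 77.7% lay above 0. Transcripts that rose in the exposed lobes were thus mostly those at higher levels in the younger total brain, and those that fell were mostly at lower levels there. Rpl7 read 12.88 on average in exposed lobes, 11.67 at 0.002 mg/kg and 12.99 in total brain vehicle. Slc17a7 averaged 9.69, 10.59 and 9.31 in the same order, and Myo5a read 10.04 in total brain vehicle, below each of its frontal lobe values. Hapln2 went the other way, with 8.39 in total brain vehicle, below its frontal lobe groups, although it rose. With each array centred on its median the shares were 82.1% of rises above and 86.6% of falls below 0, against 50.8% and 49.2% of the brighter probes. Whether the tissues were normalized together is not given, so levels across them are as deposited, and tissue, age and schedule cannot be told apart here either.

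**Figure D5:**
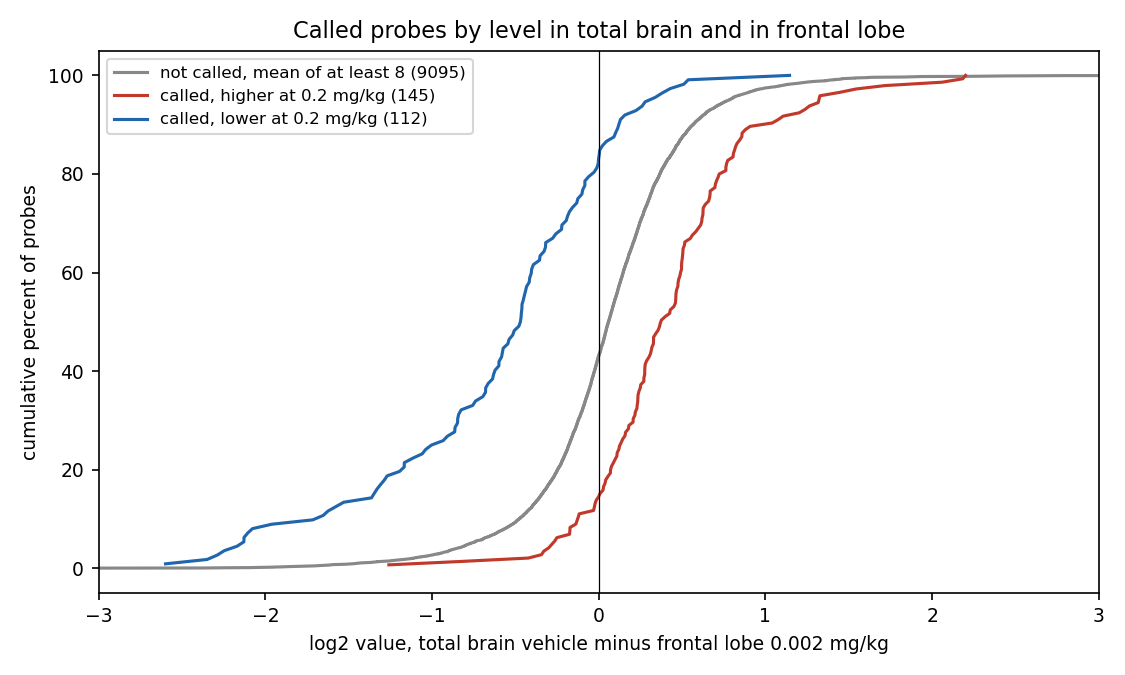
The curves give the cumulative percent of probes (y axis) by the log2 value in total brain vehicle minus that in frontal lobe at 0.002 mg/kg (x axis), both means of 3 arrays. The curve of the 145 rises (red) lies to the right and that of the 112 falls (blue) to the left of the other probes with a mean of at least 8 (grey), with medians of 0.38 and -0.47.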

How the data were processed

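The authors' deposited table holds 1 value per probe and array on a log2 scale, or one close to it, and the submitters' processing notes name lumi as the tool. Its version, transformation, normalization and any background step are not given in the sources used, and no detection p-values were used. The deposited log2 values were analysed without further transformation. Of 22523 probes 13793 carried 1 symbol and 8730 none in the platform annotation, and 13752 were updated by Entrez identifier to RefSeq names (GRCr8, used for names and promoters). Probe positions were not used.

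The 9 frontal lobe arrays, or all 18 for the interaction, were fitted by group means with limma 3.58.1 (lmFit, eBayes) in R 4.3.3, with Benjamini-Hochberg adjustment over all 22523 probes and a threshold of 0.05. The fit was tested on simulated data. Tables and figures were made in Python 3.11.15. Gene lists (37) and marker lists (15) use the probe with the highest mean for each gene and are described by counts and medians, with no test. Named are the 12 largest rises and falls with symbols, other passing probes with symbols, and of each list the passing members and the 4 smallest p values. Also named are further probes of these genes, a fixed set of thyroid, xenobiotic, glial and activity genes, and the 2 farthest unnamed probes in each direction. The comparison, the genes and the lists were chosen with earlier results of these data known. Pups of different litters are the replicates. Same-numbered arrays of different groups did not all deviate together, within the frontal lobe or across tissues, and numbers were not taken as pairs. Within total brain 6 of 9 same-numbered pairs correlated above 0.1, against 6 of 18 pairs with other numbers. Whether the numbers mark pairs or a batch is therefore not settled. Alternatives included other eBayes options, array weights, only the brighter 50% of probes, quantile normalization, centring on medians, a replicate block, other thresholds, other sets of arrays and each array left out. For arrays, their number limits the precision.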

Additional observations from a re-analysis of the deposited data

Results flagged for a closer look

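The results below were picked out because the difference between 0.2 mg/kg and vehicle itself differed between frontal lobe and total brain, by the interaction in limma over 18 arrays, which passed for 46 probes. Only probes that also passed in the frontal lobe are listed, and the frontal lobe difference is itself part of the interaction. The values are the frontal lobe difference minus the total brain difference on the log2 scale. Among genes that rose in the frontal lobe it was 1.72 for Rpl37l1, 1.36 for Rpl7, 0.96 for Rpl23 and 0.67 for Rps29, all ribosomal. It was 1.54 for the Eef1a1 probe and 1.44 for Tsn. For Nkx6-2 and Plpp2 it was 0.68 each. Smaller differences were found for Cpxm2 (0.51), Cdc16 (0.51), Msantd3 (0.49), Sgca (0.42) and Tlr6 (0.33). Rises without a symbol were ILMN_1353357 at 2.20 and ILMN_1370927 at 1.93.

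Among genes that fell in the frontal lobe it was -1.32 for Myo5a, -0.95 for Slc17a7, -0.87 for Pfkl and -0.84 for Pex5l. It was -0.71 for Dgkz, -0.70 for Atp2b2 and -0.60 for Bbs4. Smaller differences were found for Sec61a2 (-0.47), Cyp11b1 (-0.47), Kcnj11 (-0.35) and Cyp24a1 (-0.33). Falls without a symbol were ILMN_1373381 at -2.21 and ILMN_1362081 at -2.04. The tissues also differ in age and injection schedule, so the sets cannot be told apart by tissue alone.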

How the results depend on the processing

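For 0.2 mg/kg against vehicle (257 probes), quantile normalization, median centring and array weights gave 274, 259 and 204. The brighter 50% of probes gave 559, trend and robust eBayes 487, all 18 arrays 633, an adjusted p under 0.1 gave 811, a minimum size of 0.5 gave 94, the 6 compared arrays 5, and leaving out vehicle replicate 3 with exposed replicate 2 gave 727. With 1 array left out the count ran from 27 to 1036. Between the doses (646), the brighter 50% gave 1182, trend and robust eBayes 1211, array weights 1066, and an adjusted p under 0.1 gave 1624. A minimum size of 0.5 gave 261, the 6 arrays of these doses alone 911, and single arrays left out 28 to 1176. For the interaction (46), the same settings gave 102, 87, 79 and 155, a minimum size of 0.5 gave 34, and single arrays left out 14 to 370, the highest without vehicle replicate 3. With the replicate number as a block the counts were 43, 65 and 33. Same-numbered deviations correlated between -0.249 and 0.105 within the frontal lobe. Across tissues at the same dose they ran from -0.407 to 0.247, with 2 of 9 pairs over 0.1. Within total brain they ran from -0.294 to 0.44, with 6 of 9 pairs over 0.1, against 6 of 18 pairs with other numbers. The numbers were not taken as pairs.

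Of 236 named differences under 20 settings, 10 values changed sign, all in genes that did not pass. Thrsp became -0.18 without vehicle replicate 3, -0.08 without exposed replicate 2 and -0.43 without both. Hr became -0.01 without vehicle replicate 1 and without exposed replicate 2, and -0.02 without the pair (vehicle replicate 3 and exposed replicate 2). Klf9 became 0.04 without vehicle replicate 3 and without that pair. Ttr became 0.29 without vehicle replicate 1, and Gfap -0.05 without the pair. With 1 array left out these genes ran from -0.18 to 0.48 (Thrsp), -0.01 to 0.10 (Hr), -0.07 to 0.04 (Klf9), -1.11 to 0.29 (Ttr) and 0.07 to 0.71 (Gfap). Leaving out 1 array lost from 5 (vehicle replicate 3) to 179 (vehicle replicate 2) of the named calls, and the 6 compared arrays alone lost 192. The cause of these changes was not tested. Medians of the 52 lists moved by less than the spread between replicates under quantile normalization, median centring, array weights and averaging over probes, and 10 moved by more with the brighter 50% of probes. With arrays left out, 1 moved by more without exposed replicate 1, 2 each without exposed replicate 2, vehicle replicate 2 and vehicle replicate 3, and 4 without the pair. The share of rises at higher levels in total brain ran from 73.8% to 85.5%, and that of falls at higher levels there from 13.4% to 19.6%, over the total brain groups and centrings, all chosen after seeing the data.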

Other observations

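The farthest falls belonged to 8 probes without a symbol, singled out after their values were seen, which fell by 1.79 to 2.16. In each of them vehicle replicate 3 was the lowest vehicle lobe. In all but ILMN_1369758, replicate 2 at 0.002 mg/kg was the highest total brain array. Whether these 8 probes report separate transcripts was not tested. Their values ran from 10.66 to 13.27 in vehicle (median 12.52) and from 10.89 to 13.12 at 0.002 mg/kg (median 12.55), against 8.87 to 11.16 at 0.2 mg/kg (median 10.60). In total brain the same probes had medians of 10.32 in vehicle, 10.61 at 0.002 mg/kg and 10.34 at 0.2 mg/kg, so the exposed lobes were at the total brain level and the other lobes were above it. ILMN_1369758 among them had the smallest adjusted p of the comparison, 0.000481, and read 10.89, 10.94 and 10.66 in vehicle against 8.97, 8.87 and 9.10. The farthest rises without a symbol were ILMN_1353357 (9.77, 9.98 and 10.21 against 11.61, 11.94 and 11.53) and ILMN_1370927 (10.01, 10.00 and 10.39 against 11.53, 11.82 and 11.44), by 1.71 and 1.46.

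Some large differences did not pass, with a wide spread between arrays of a group, and these too were chosen after their values were seen. Both probes of Rps9, a protein of the small ribosomal subunit, took a high or a low value. The brighter one read 10.45, 10.10 and 10.42 in vehicle, 12.70, 10.00 and 10.00 at 0.002 mg/kg and 13.06, 10.77 and 13.04 at 0.2 mg/kg (adjusted p = 0.332). In total brain it read 13.14 in 0.002 mg/kg replicate 1 and 13.44 in 0.2 mg/kg replicate 1, and between 9.88 and 10.78 in the other 7 arrays. ILMN_1365113 was high in the same 5 arrays of the series, at 12.25 or above, and between 8.24 and 8.80 in the others. Albumin (Alb) and Ahsg, plasma protein genes of the liver, were high in frontal lobe vehicle replicate 1, at 12.53 for an Alb probe and 12.64 for Ahsg, where the other 8 frontal lobe arrays lay between 8.30 and 9.45 for Alb and between 8.16 and 9.79 for Ahsg. Ttr was high in the same array. Pomc, a precursor of hypothalamic peptides, read 8.41, 8.46 and 8.63 in vehicle and 8.91, 10.43 and 9.67 at 0.2 mg/kg (adjusted p = 0.137), while 11 of 16 hypothalamic markers lay above 0 with a median of 0.03.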
